A study of Mus musculus with 6 samples.

Results

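The activated microglia genes are 10 genes of microglia and other myeloid cells, grouped here as activation genes: Aif1, Ptprc, Tyrobp, Trem2, Cd68, Itgax, Clec7a, Cst7, Cd84 and Lyz2. Every probe set whose platform annotation gave only 1 of these symbols was taken, which gave 13 of the 45037 probe sets tested, for 10 of 18193 genes. Expression was measured in total RNA of whole mouse brain on 6 one-colour arrays, 2 in each of 3 groups, and all mice were of the C57/Bl6 strain and 2 months old. Knockout brains carried Nestin-Cre together with 2 floxed Pofut1 alleles. NestinCre control brains carried the same transgene and wild-type Pofut1, and Flox control brains carried the floxed Pofut1 alleles without Cre. Pofut1 encodes the enzyme that puts O-linked fucose on EGF repeats of Notch receptors and other proteins. The Nestin promoter drives Cre in neural progenitors and so in the neurons, astrocytes and oligodendrocytes that come from them, while microglia descend from the yolk sac.

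Microglia are the resident macrophages of the brain. In the resting state they express a signature that includes the purinergic receptor P2ry12, the membrane protein Tmem119 and the fractalkine receptor Cx3cr1. In reactive states, as known from mouse models of neurodegeneration and demyelination, the receptor Trem2 signals through its adaptor Tyrobp, genes such as Itgax, Clec7a and Cst7 are switched on, and parts of the resting signature fall. Aif1, Ptprc, Tyrobp, Cd68, Cd84 and Lyz2 are also expressed by other macrophages and by leukocytes, so none of these marks microglia alone. Microglia at rest also carry some members, such as Aif1 and Ptprc, so a higher value of these alone does not show a reactive state. In whole-brain RNA, more cells of a type and more RNA per cell cannot be told apart.

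The 250 bases before the first start that RefSeq lists in GRCm38.p6 were found for 9 of the 10 genes. They are shown for the 5 genes whose knockout arrays stood farthest above the controls in the values below, so that the sequence upstream of genes that were higher together can be read. Capitals mark GAGGAA, the core bound by the myeloid transcription factor PU.1, and TGACTCA, the site of the AP-1 factors, on either strand. The Clec7a sequence lies at chr6:129472780-129473029 on the minus strand, that of Ptprc at chr1:138175306-138175555 on the minus strand, that of Aif1 at chr17:35176053-35176302 on the minus strand, that of Cd84 at chr1:171839447-171839696 on the plus strand and that of Itgax at chr7:128129300-128129549 on the plus strand.
Clec7a: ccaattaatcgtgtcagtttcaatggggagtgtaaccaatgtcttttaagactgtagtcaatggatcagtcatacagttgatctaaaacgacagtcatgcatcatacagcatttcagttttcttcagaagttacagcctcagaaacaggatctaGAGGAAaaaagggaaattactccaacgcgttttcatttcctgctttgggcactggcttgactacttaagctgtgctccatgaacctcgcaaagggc
Ptprc: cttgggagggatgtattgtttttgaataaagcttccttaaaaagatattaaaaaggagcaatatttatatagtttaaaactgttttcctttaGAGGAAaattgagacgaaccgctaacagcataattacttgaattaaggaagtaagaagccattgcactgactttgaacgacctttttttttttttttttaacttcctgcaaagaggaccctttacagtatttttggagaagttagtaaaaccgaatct
Aif1: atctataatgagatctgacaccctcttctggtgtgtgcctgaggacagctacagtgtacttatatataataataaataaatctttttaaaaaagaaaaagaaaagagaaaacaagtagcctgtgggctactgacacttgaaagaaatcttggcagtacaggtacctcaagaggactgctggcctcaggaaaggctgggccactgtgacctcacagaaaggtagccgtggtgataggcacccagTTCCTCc
Cd84: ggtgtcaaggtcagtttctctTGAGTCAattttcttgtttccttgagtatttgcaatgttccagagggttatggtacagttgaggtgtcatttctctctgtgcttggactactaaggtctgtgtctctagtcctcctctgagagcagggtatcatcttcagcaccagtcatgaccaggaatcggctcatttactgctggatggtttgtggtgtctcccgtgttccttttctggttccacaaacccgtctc
Itgax: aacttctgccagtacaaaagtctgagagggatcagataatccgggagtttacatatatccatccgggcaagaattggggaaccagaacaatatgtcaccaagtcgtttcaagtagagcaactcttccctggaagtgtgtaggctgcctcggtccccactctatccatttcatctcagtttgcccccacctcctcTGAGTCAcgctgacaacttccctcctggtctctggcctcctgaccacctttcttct

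GAGGAA stood in 5 of the 9 members' windows (55.6%), against 3 of 12 windows of resting-state genes (25.0%) and 23.1% of 27025 windows of all genes. Among the 5 shown, Clec7a, Ptprc and Aif1 held it, and Cd68 and Trem2 held it too, although their arrays overlapped between the groups. TGACTCA stood in 3 of 9 (33.3%), those of Cd84, Itgax and Cd68, against 0 of 12 in resting-state genes and 4.43% of all. The STAT dimer site TTCNNNGAA was found in 0 of 9 members and 7.18% of all. A match of letters is a description of the sequence and no measured binding.

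The arrays looked alike. Array medians lay between 7.32 and 7.36 on the log2 scale, and the correlation between 2 arrays was 0.985 at the lowest and 0.995 at the highest. The brightest Pofut1 probe set read 9.25 and 9.44 in knockout arrays, 9.84 and 9.77 in NestinCre control arrays and 9.95 and 9.81 in Flox control arrays, so both knockout arrays were below all 4 controls (log2 difference -0.50, SE 0.08, limma adjusted p = 0.211). Its place relative to the floxed stretch of the gene was not determined here. By Xist and Eif2s3y, knockout replicate 1 and NestinCre control replicate 2 were male and the other 4 arrays female. The neutrophil genes S100a8 and S100a9 read 9.16 and 9.28 in NestinCre control replicate 2 and at most 6.56 and 6.97 in the other arrays.

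Most of the activated microglia genes were higher in knockout brain than in either control, and the resting-state genes differed little. Taking for each gene the probe set with the highest mean over the arrays, all 10 had a positive difference between knockout and the mean of both control groups, with a median of 0.59 on the log2 scale, against a median of -0.02 and 40.7% positive over all 18193 genes. Both knockout arrays lay above all 4 control arrays for 8 of the 10 genes, against 7.23% of all genes. At an unadjusted p under 0.05, 7 of the 10 were higher, against 4.16% of all genes, and 0 were lower, against 6.45%. None passed the limma adjusted threshold of 0.05 over all probe sets, which 7 of 45037 probe sets (0.0155%) did while 5010 (11.1%) had an unadjusted p under 0.05, and the smallest adjusted p of a member was 0.0630. The 10 genes were chosen with such results known, so these counts describe the genes and are no independent test. The 5 largest differences were those of the surface receptors Clec7a, Cd84, Ptprc and Itgax and of Aif1, and the smaller ones those of Tyrobp, Trem2 and the lysosomal and secreted members.

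**Figure D1:**
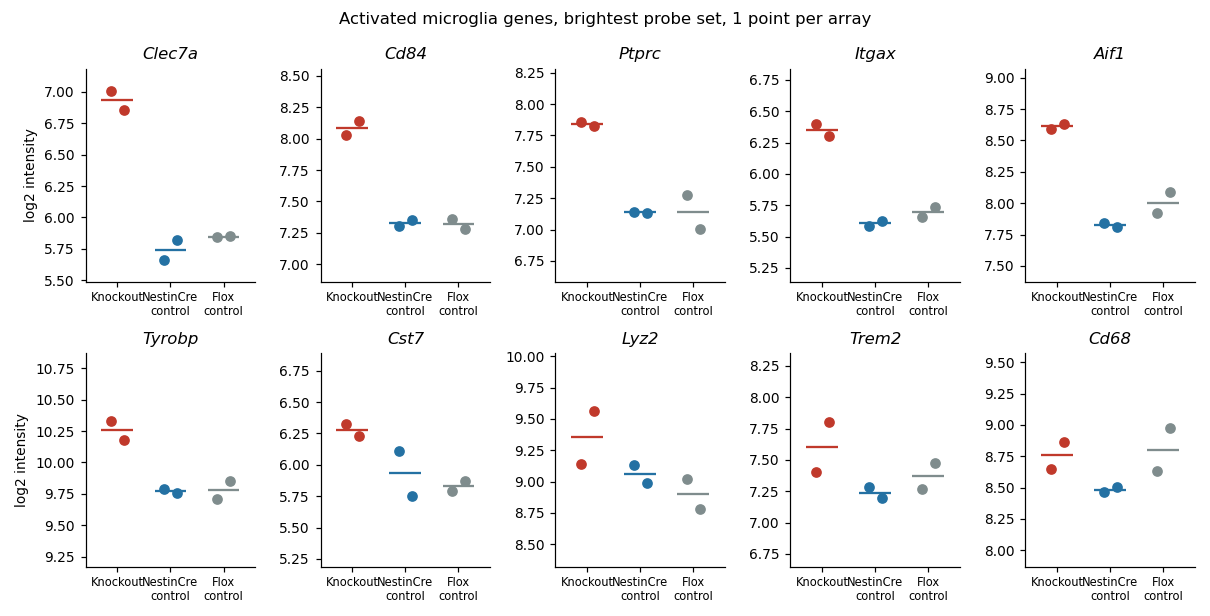
Log2 intensity of the brightest probe set of each of the 10 genes, in order of the difference between knockout and both controls, with 1 point per array, a line at the group mean and the same span on every vertical axis. The 2 knockout arrays stand clear of the 4 control arrays for Clec7a, Cd84, Ptprc, Itgax, Aif1 and Tyrobp, come as near as 0.12 to the highest control for Cst7, and overlap the controls for Trem2 and Cd68, and for Lyz2 replicate 1 is level with the highest control while replicate 2 is well above it.

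Clec7a encodes dectin-1, a C-type lectin that binds fungal beta-glucans and signals through the kinase Syk. Its only probe set, 1420699_at, read 7.01 and 6.86 in knockout arrays, 5.66 and 5.82 in NestinCre control arrays and 5.84 and 5.85 in Flox control arrays on the log2 scale. Both knockout arrays were above every control, by at least 1.01, while the controls lay within 0.19 of each other. The log2 difference was 1.14 (SE 0.07), a 2.20-fold higher intensity, and did not pass over all probe sets (limma adjusted p = 0.0630). Clec7a was dim: even its knockout arrays were below 7.35, the median of all values.

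Itgax encodes CD11c, the alpha chain of a beta-2 integrin that is used as a marker of dendritic cells and of reactive microglia. Probe set 1419128_at read 6.40 and 6.30 in knockout arrays, 5.58 and 5.63 in NestinCre control arrays and 5.66 and 5.74 in Flox control arrays. Knockout was above every control and the controls differed little among themselves. Itgax was 1.62-fold higher, a log2 difference of 0.70 (SE 0.06, limma adjusted p = 0.0890), again among dim values.

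Cd84 encodes a self-binding receptor of the SLAM family found on leukocytes. Its brighter probe set, 1422875_at, read 8.03 and 8.14 in knockout arrays, 7.30 and 7.35 in NestinCre control arrays and 7.36 and 7.28 in Flox control arrays. The 4 controls were nearly level and both knockout arrays were at least 0.67 above them. Knockout exceeded the controls 1.70-fold, by 0.76 on the log2 scale (SE 0.06, limma adjusted p = 0.0823). The second probe set, 1446505_at, which was dim, differed by 0.33 (SE 0.07, limma adjusted p = 0.242) and both knockout arrays were above all controls there too.

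Ptprc encodes CD45, the receptor tyrosine phosphatase carried by all nucleated blood cells and at a low level by microglia. Probe set 1422124_a_at read 7.86 and 7.83 in knockout arrays, 7.14 and 7.13 in NestinCre control arrays and 7.27 and 7.01 in Flox control arrays. The knockout arrays were almost equal and lay above every control, and the Flox control arrays spread most. On average Ptprc was 1.63-fold higher, a log2 difference of 0.70 (SE 0.09, limma adjusted p = 0.153). The dim second probe set, 1440165_at, differed by 0.22 (SE 0.07, limma adjusted p = 0.374), in the same direction.

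Aif1 encodes IBA1, the calcium- and actin-binding protein that is stained to show microglia. Probe set 1418204_s_at read 8.59 and 8.63 in knockout arrays, 7.84 and 7.81 in NestinCre control arrays and 7.92 and 8.09 in Flox control arrays. All knockout values were above all controls, and NestinCre control was the lowest group. The log2 difference was 0.70 (SE 0.06), or 1.62-fold (limma adjusted p = 0.0978).

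Tyrobp encodes DAP12, the adaptor whose tyrosine motif carries the signal of Trem2 and of several other myeloid receptors. Probe set 1450792_at read 10.33 and 10.18 in knockout arrays, 9.79 and 9.75 in NestinCre control arrays and 9.71 and 9.85 in Flox control arrays. The knockout arrays were again above every control. Tyrobp was 1.39-fold higher, by 0.48 on the log2 scale (SE 0.07, limma adjusted p = 0.183).

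Trem2, the lipid-sensing receptor that pairs with Tyrobp, did not separate the groups. Its brighter probe set, 1421792_s_at, read 7.40 and 7.80 in knockout arrays, 7.28 and 7.20 in NestinCre control arrays and 7.27 and 7.47 in Flox control arrays. Flox control replicate 2 was above knockout replicate 1, so the groups overlapped. The log2 difference was 0.30 (SE 0.13, 95% interval -0.05 to 0.64, limma adjusted p = 0.511). The dim probe set 1421226_at pointed the other way, at -0.07 (SE 0.05, 95% interval -0.21 to 0.07, limma adjusted p = 0.734). For the brighter probe set the difference was 0.10 without knockout replicate 2 and 0.49 without knockout replicate 1.

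Cst7 encodes cystatin F, an inhibitor of lysosomal cysteine proteases. Its dim probe set, 1419202_at, read 6.33 and 6.23 in knockout arrays, 6.11 and 5.75 in NestinCre control arrays and 5.79 and 5.87 in Flox control arrays. The knockout arrays were above all controls, by 0.12 at the closest, which is less than the distance between the NestinCre control arrays. Cst7 differed by 0.40 on the log2 scale (SE 0.11, limma adjusted p = 0.344).

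Lyz2 encodes lysozyme M, a bactericidal enzyme secreted by macrophages and neutrophils. Probe set 1423547_at read 9.14 and 9.56 in knockout arrays, 9.13 and 8.99 in NestinCre control arrays and 9.02 and 8.78 in Flox control arrays. Knockout replicate 2 stood apart, while replicate 1 was only just above the highest control, and its lead was lost when the arrays were shifted by their resting-list means. The log2 difference was 0.37 (SE 0.15, 95% interval -0.01 to 0.75, limma adjusted p = 0.455). It was 0.16 without knockout replicate 2 and 0.58 without knockout replicate 1. NestinCre control replicate 2, the array with high S100a8 and S100a9, was not high for Lyz2.

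Cd68, a glycoprotein of the lysosomal membrane that is used to mark phagocytic cells, had the smallest difference of the 10. Probe set 1449164_at read 8.65 and 8.86 in knockout arrays, 8.46 and 8.50 in NestinCre control arrays and 8.63 and 8.98 in Flox control arrays. The highest array was a Flox control and the groups overlapped. Cd68 differed by 0.11 on the log2 scale (SE 0.12, 95% interval -0.20 to 0.42, limma adjusted p = 0.818). It was 0.0075 without knockout replicate 2 and 0.22 without knockout replicate 1, and 0.03 and 0.20 without Flox control replicate 1 and without Flox control replicate 2.

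The 2 knockout arrays did not rank alike across the genes. Knockout replicate 2 was above replicate 1 by 0.42 for Lyz2, 0.40 for Trem2, 0.21 for Cd68, 0.11 for Cd84 and 0.04 for Aif1, and the first 3 of these had the widest knockout spread. Replicate 1 was the higher for Clec7a, Itgax, Tyrobp, Cst7 and Ptprc, by 0.03 to 0.16. The replicates are of different sex. The male arrays were 1 knockout and 1 control, NestinCre control replicate 2, which is the array with high S100a8 and S100a9. Between these male arrays all 10 genes had a positive difference with a median of 0.63, from 0.15 for both Lyz2 and Cd68 to 1.19 for Clec7a. Between the female arrays, 1 knockout and the mean of 3 controls, all 10 were also positive. The median was 0.61, from 0.17 for Cd68 to 1.07 for Clec7a. For Cd68 a female control, Flox control replicate 2 (8.98), was above the female knockout array (8.86). The share of all genes was not counted within a sex.

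Knockout was then compared with each control alone, to set apart the floxed alleles and the transgene. Both comparisons share the knockout arrays. Against NestinCre control the members had a median log2 difference of 0.59, and 7 of 10 were higher at an unadjusted p under 0.05, against 3.23% of all genes, and 0 were lower, against 2.89%. Against Flox control the median was 0.54, and 8 of 10 were higher at an unadjusted p under 0.05, against 4.75% of all genes. No member passed the limma adjusted threshold in either. Over all probe sets 0 of 45037 (0%) passed against NestinCre control, with 2617 (5.81%) at an unadjusted p under 0.05. Against Flox control 2 (0.00444%) passed, with 7179 (15.9%) at an unadjusted p under 0.05.

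Clec7a differed by 1.19 (SE 0.09) from NestinCre control and by 1.09 (SE 0.09) from Flox control. Cd84 differed by 0.76 (SE 0.07) from both, and Ptprc by 0.71 (SE 0.10) from NestinCre control and 0.70 (SE 0.10) from Flox control. Tyrobp was as even, at 0.48 (SE 0.08) from each. Aif1 differed by 0.79 (SE 0.07) from NestinCre control and 0.61 (SE 0.07) from Flox control. Cd68 had opposite signs, at 0.27 (SE 0.14) from NestinCre control and -0.05 (SE 0.14) from Flox control. Lyz2 differed by 0.29 (SE 0.17) from NestinCre control and 0.45 (SE 0.17) from Flox control.

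Between the controls the members differed less. NestinCre control minus Flox control had a median of -0.05 over the 10 genes, and 3 (30.0%) were above 0, against 35.8% of all genes. No member reached an unadjusted p under 0.05 there, where 2.08% of all genes were higher and 7.07% lower, and 0 of 45037 probe sets (0%) passed the limma adjusted threshold, with 4693 (10.4%) at an unadjusted p under 0.05. Cd68 had the largest distance, -0.32 (SE 0.14, limma adjusted p = 0.520), followed by Aif1 at -0.18 (SE 0.07, limma adjusted p = 0.507).

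**Figure D2:**
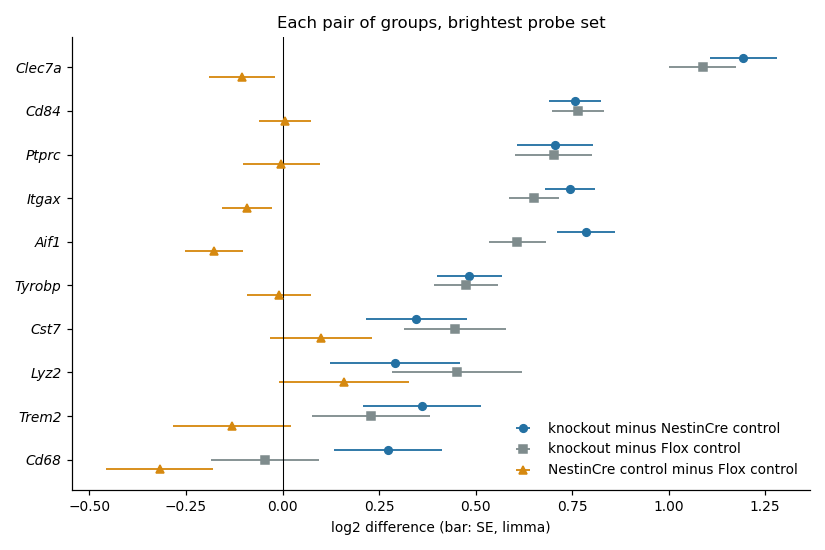
Log2 difference of each gene's brightest probe set for knockout minus NestinCre control, knockout minus Flox control and NestinCre control minus Flox control, with bars of 1 SE from limma. Both knockout comparisons lie near each other and away from 0 for the upper 6 genes, and the difference between the controls stays within 0.32 of 0 for all 10.

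The activated genes were set against 16 measured resting-state microglial genes, all of them brighter than the median of all probe sets. The median log2 difference of these was 0.08, with a range of -0.13 for Slc2a5 to 0.33 for Crybb1. Above 0 were 12 of the 16 (75.0%), against 40.7% of all genes, so most leaned the same way as the members. At an unadjusted p under 0.05, 0 of the 16 were higher, against 4.16% of all genes, and 0 lower, against 6.45%. Knockout was above all controls in 1 gene, the ADP receptor P2ry13 (0.13, SE 0.06), and below all in 1, the secreted protease inhibitor Cst3 (-0.09, SE 0.05). These shares, 6.25% each, compare with 7.23% of all genes above and 10.9% below.

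P2ry12 read 8.87 and 8.60 in knockout arrays, 8.43 and 8.75 in NestinCre control arrays and 8.63 and 8.70 in Flox control arrays, a log2 difference of 0.10 (SE 0.12, 95% interval -0.22 to 0.42). Tmem119 read 9.20 and 9.57 in knockout arrays, 9.16 and 9.11 in NestinCre control arrays and 9.45 and 9.41 in Flox control arrays, a difference of 0.10 (SE 0.11, 95% interval -0.19 to 0.39). For Cx3cr1 the difference was 0.19 (SE 0.11, 95% interval -0.09 to 0.48), and for the colony-stimulating factor receptor Csf1r, on which microglia depend for survival, 0.07 (SE 0.08, 95% interval -0.14 to 0.29). In each of these genes the knockout arrays overlapped the controls. The intervals of Clec7a (0.95 to 1.33), Cd84 (0.61 to 0.91), Itgax (0.55 to 0.84), Aif1 (0.53 to 0.86) and Ptprc (0.48 to 0.93) lie above those of all 4, whereas those of the other 5 members overlap at least 1 of them. This does not hold for all 16 resting-state genes. The interval of Crybb1 (-0.29 to 0.96) overlaps that of every member, that of Fcrls (-0.87 to 0.91) overlaps all but Clec7a, and those of Olfml3 (-0.45 to 0.64) and Sall1 (-0.23 to 0.61) reach into several. A difference between genes was not tested.

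**Figure D3:**
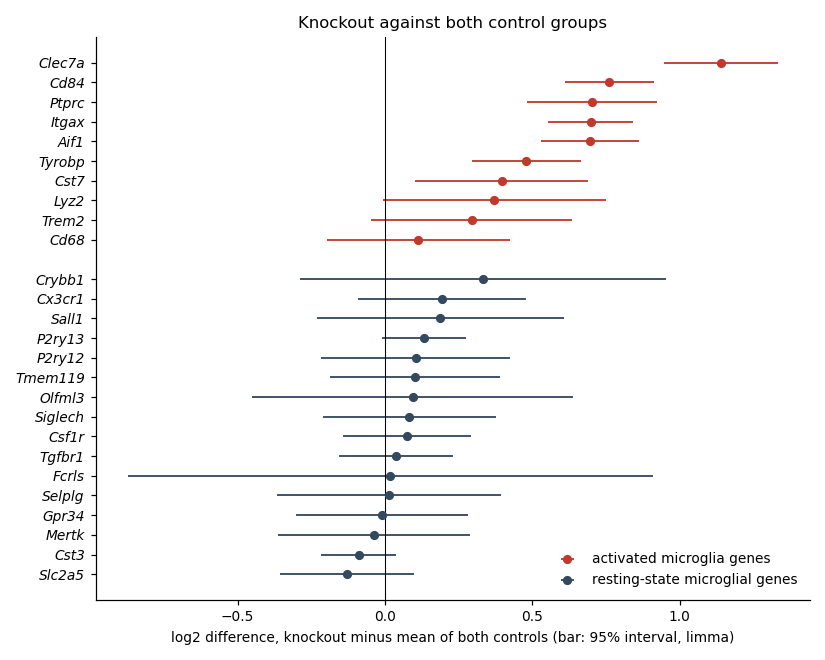
Log2 difference between knockout and the mean of both controls for the 10 activated and 16 resting-state genes, with 95% intervals from limma. The intervals of 7 activated genes lie above 0, and all 16 intervals of the resting-state genes include 0.

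The same contrast shows within arrays. The mean of the members, each centred on its own mean over the arrays, was 0.34 and 0.41 in knockout arrays, -0.20 and -0.24 in NestinCre control arrays and -0.18 and -0.14 in Flox control arrays. The mean of the resting-state genes was -0.03 and 0.12 in knockout arrays, -0.04 and -0.03 in NestinCre control arrays and 0.03 and -0.05 in Flox control arrays. Knockout replicate 2 was the highest array for both lists. After subtracting each array's resting-list mean, which was done after seeing the data, all 10 members remained above 0, with a median of 0.52 and a range of 0.04 for Cd68 to 1.07 for Clec7a. The share of all genes above 0 was not counted after this shift. On that scale 6 genes, against 2.16% of all genes, had both knockout arrays above all controls, namely Clec7a, Cd84, Ptprc, Itgax, Aif1 and Tyrobp.

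**Figure D4:**
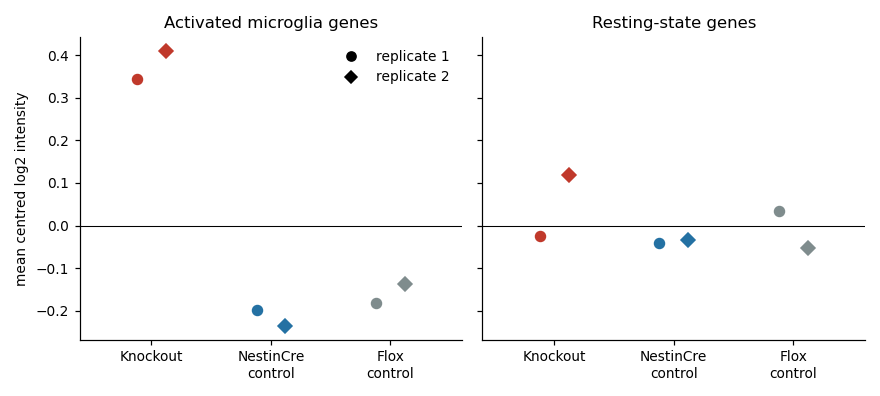
Mean centred log2 intensity per array over the 10 activated and the 16 resting-state genes, with circles for replicate 1 and diamonds for replicate 2. The knockout arrays stand at 0.34 and 0.41 for the activated genes, above all controls, and at -0.03 and 0.12 for the resting-state genes, where replicate 1 lies among the controls.

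Other genes of the reactive state gave a mixed picture. Of 22 measured, 12 (54.5%) were above 0, against 40.7% of all genes, and the median was 0.05. At an unadjusted p under 0.05, 8 were higher (36.4%, against 4.16% of all genes) and 1 lower (4.55%, against 6.45%), and none passed the limma adjusted threshold. Itgb2, the beta chain that pairs with CD11c, averaged 6.99 ± 0.02 in knockout arrays, 6.53 ± 0.10 in NestinCre control arrays and 6.71 ± 0.09 in Flox control arrays (SD, n = 2 each; log2 difference 0.37, SE 0.07, limma adjusted p = 0.224). Gpr84, a fatty acid receptor of myeloid cells, differed by 0.34 (SE 0.07, limma adjusted p = 0.241), and Cd52, a small lipid-anchored glycoprotein of leukocytes, by 0.81 (SE 0.17, limma adjusted p = 0.246). Gpnmb, a glycoprotein of phagocytic cells, read 7.95 and 8.74 in knockout arrays, 7.27 and 7.11 in NestinCre control arrays and 7.47 and 7.34 in Flox control arrays (1.04, SE 0.23, limma adjusted p = 0.263). Like Lyz2 and Trem2, it was highest in knockout replicate 2, while its dimmer probe set differed by 0.69 (SE 0.13) and was highest in knockout replicate 1.

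Apoe, the lipid carrier made in the brain mainly by astrocytes and in reactive states also by microglia, differed in the other direction. It read 10.96 and 11.36 in knockout arrays, 11.66 and 11.67 in NestinCre control arrays and 11.76 and 11.75 in Flox control arrays. Both knockout arrays were below all controls, with a log2 difference of -0.55 (SE 0.12, limma adjusted p = 0.260).

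Trem2 and dectin-1 signalling and the factors that drive myeloid genes gave 16 measured genes, with a median of 0.11. Above 0 were 14 of them (87.5%), against 40.7% of all genes. At an unadjusted p under 0.05, 4 were higher (25.0%, against 4.16% of all genes) and 1 was lower (6.25%, against 6.45%), and none passed the limma adjusted threshold. Inpp5d, the lipid phosphatase SHIP1 that limits signalling downstream of Tyrobp, differed by 0.46 (SE 0.05, limma adjusted p = 0.127), but its dimmer probe set by 0.05 (SE 0.09). The transcription factor Irf8 differed by 0.45 (SE 0.07, limma adjusted p = 0.183) and the kinase subunit Pik3cg by 0.81 (SE 0.16, limma adjusted p = 0.242), with its dimmer probe set at 0.14 (SE 0.09). The kinase Syk differed by 0.11 (SE 0.06) and Spi1, which encodes PU.1, by 0.01 (SE 0.13, 95% interval -0.34 to 0.36). The adaptor Pik3ap1 was the lower one (-0.39, SE 0.05, limma adjusted p = 0.146), and it stood at 6.22 and 6.26 in knockout arrays, 6.31 and 6.28 in NestinCre control arrays and 6.94 and 6.98 in Flox control arrays, so the distance was from Flox control.

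Markers of other cells that could carry the members were read beside them. Of 9 perivascular macrophage genes 5 (55.6%) were above 0, against 40.7% of all genes, with a median of 0.02. At an unadjusted p under 0.05, 4 of the 9 were higher (44.4%, against 4.16% of all genes) and 0 lower, against 6.45%, and none passed the limma adjusted threshold. Mrc1 (0.41, SE 0.08), Lyve1 (0.41, SE 0.13), F13a1 (0.44, SE 0.14) and Cd163 (0.55, SE 0.21) were these 4. They also had both knockout arrays above all controls, against 7.23% of all genes. Stab1 (-0.19, SE 0.08), Pf4 (-0.16, SE 0.07) and Cbr2 (-0.67, SE 0.43), 3 of the 9, had both below, against 10.9% of all genes. The summed intensity of the 9 genes was 1583 to 1646 in knockout arrays, 1429 to 1618 in NestinCre control arrays and 1345 to 1678 in Flox control arrays. Their part in the higher members was not tested.

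Markers of blood cells had median differences near 0. These were 0.06 for 6 monocyte genes, -0.06 for 9 neutrophil genes, 0.01 for 11 lymphocyte genes, -0.01 for 5 dendritic cell genes and 0.02 for 3 red cell genes. Most of these genes were dim, with median levels of 5.65, 5.65, 5.73, 5.78 and 5.61 in the same order. Dimmer than the median of all probe sets were 4, 9, 10, 3 and 3 of them. At such levels a difference near 0 says little about the number of these cells. At an unadjusted p under 0.05, 1 monocyte gene, Ccr2, was higher (16.7%, against 4.16% of all genes). Cd4, a lymphocyte gene, was lower (9.09%, against 6.45%), and no others were called. Both knockout arrays lay above all controls for 2 of 6 monocyte genes, against 7.23% of all genes. The same held for 1 of 9 neutrophil, 1 of 11 lymphocyte, 1 of 5 dendritic cell and 1 of 3 red cell genes. For 2 of 9 neutrophil genes both lay below, against 10.9% of all genes. Of the lymphocyte genes, Cd4 differed by -0.29 (SE 0.07, limma adjusted p = 0.304). Its difference was -0.51 from Flox control, and NestinCre control differed from Flox control by -0.45. From NestinCre control no lymphocyte gene had a difference below -0.11, so the distance of Cd4 was mainly from Flox control. The monocyte receptor Ccr2 read 5.79 and 5.71 in knockout arrays, 5.46 and 5.69 in NestinCre control arrays and 5.53 and 5.41 in Flox control arrays, against a lowest value near 5.25 on every array (0.23, SE 0.09, limma adjusted p = 0.439). The summed intensity of the neutrophil genes was 546 to 563 in knockout arrays, 557 to 1586 in NestinCre control arrays and 536 to 545 in Flox control arrays. That of the lymphocyte genes was 774 to 778 in knockout arrays, 755 to 812 in NestinCre control arrays and 842 to 850 in Flox control arrays. The dendritic cell genes summed to 1927 to 2171 in knockout arrays, 2010 to 2171 in NestinCre control arrays and 1947 to 1952 in Flox control arrays. The monocyte genes summed to 1035 to 1154 in knockout arrays, 999 to 1107 in NestinCre control arrays and 1056 to 1070 in Flox control arrays. The dendritic cell and monocyte sums came mainly from the 2 genes of each list that were brighter than the median of all probe sets. The part of these blood cells in the higher members was not tested either.

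**Figure D5:**
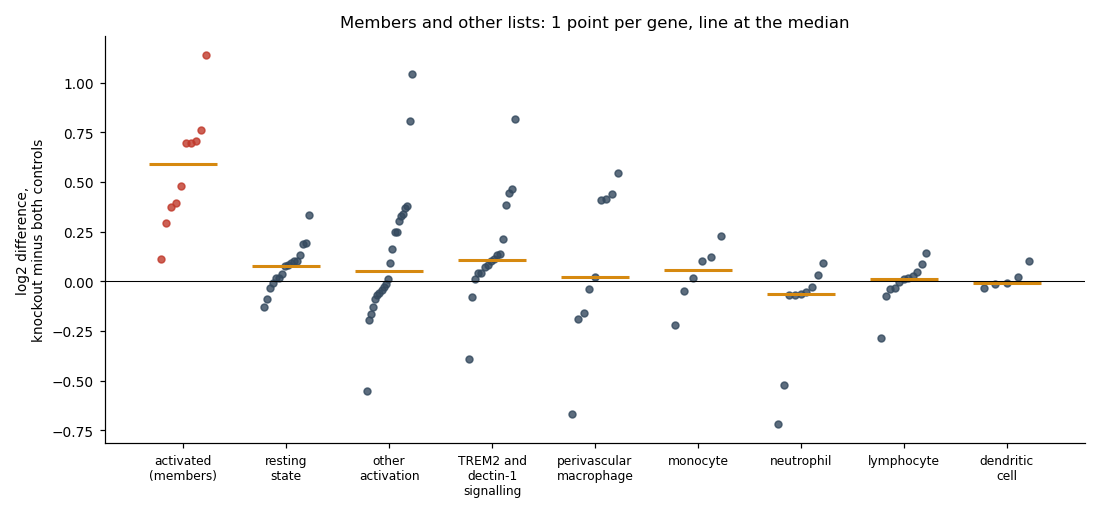
Log2 difference between knockout and the mean of both controls for each gene of the members and of 8 other lists, by brightest probe set, with a line at each list's median. The median is 0.59 for the members and between -0.06 and 0.11 for the other lists, some of which hold single genes as high as the members.

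The genes whose profile over the 6 arrays was nearest to the mean profile of the members were sought among 11468 brighter genes, by the root mean square distance of the centred log2 values. The nearest was Ctsc, a lysosomal dipeptidyl peptidase, at a distance of 0.032. Ctsc read 8.79 and 8.87 in knockout arrays, 8.20 and 8.24 in NestinCre control arrays and 8.26 and 8.25 in Flox control arrays, a log2 difference of 0.59 (SE 0.05, limma adjusted p = 0.0890). Then came Inpp5d (0.058), the myeloid receptor Cd300c2 (0.062), the ubiquitin ligase Rnf213 (0.071), the ectonucleotidase Entpd1 (0.076) and the peptidylarginine deiminase Padi2 (0.076). A small distance over 6 arrays among so many genes is a description only.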

How the data were processed

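Total RNA of 6 mouse brain samples was hybridised to 1 array each; per the labels' protocols, 25 ng was amplified and biotin-labelled. The authors deposited linear-scale intensity values, with a value for every probe set on every array. Per the submitters' processing notes, the tools were GCOS and RMA, with neither version nor role given. RMA corrects background, equalises array distributions and compresses differences of dim probe sets. Log2 of each deposited intensity was taken here. Of 45101 probe sets, 64 controls were left out and 45037 tested with limma 3.58.1 in R 4.3.3: 3 group means, lmFit and eBayes without trend, Benjamini-Hochberg adjustment over all, threshold 0.05. A single platform gene symbol was held by 34945 probe sets, standing for 18193 genes. This step was tested on simulated data first. Nothing in the labels ties samples to animals. By Xist and Eif2s3y the 2 knockout arrays differ in sex, as do the 2 NestinCre control arrays, so neither pair repeats 1 animal. The 2 Flox control arrays are both female and could be technical repeats. The p-values reflect only how these samples vary. With 2 arrays a group, precision is limited by their number.

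The members and lists were chosen with earlier results of these data known. Every member probe set is given. From the resting list, P2ry12, Tmem119 and Cx3cr1 were always named. From each other list the smallest p-values chose up to 4 genes. Gpnmb, Syk, Spi1, S100a8, S100a9, Csf1r, Stab1, Pf4, Cbr2, Crybb1, Fcrls, Olfml3, Sall1 and Cd4 were named after their values were seen. Alternatives were a repeated quantile normalization, median centring, a brightness filter, an intensity trend, fits of the compared groups, the replicate block, log2 of intensity plus 16, sex as a covariate, 1 array left out, and all probe sets of a gene averaged. Counts of members and a shift of each array by its resting-list mean were added after seeing the data. Promoter sequences are from RefSeq, GRCm38.p6.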

Additional observations from a re-analysis of the deposited data

How the results depend on the processing

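All 10 member genes kept a positive difference between knockout and both controls under every alternative that held them, and the dim Trem2 probe set kept a negative one. The size was less stable for some: leaving out 1 array gave 0.10 to 0.49 for Trem2, 0.16 to 0.58 for Lyz2, 0.0075 to 0.22 for Cd68 and 0.13 to 0.32 for the dim Ptprc probe set, with the lowest value without knockout replicate 2 and the highest without knockout replicate 1. The dim Trem2 probe set gave -0.10 and -0.04 in the same 2 cases. The median of the members was 0.52 with log2 of the intensity plus 16, 0.47 with all probe sets of a gene averaged, 0.48 with the 7 members brighter than the median of all probe sets, 0.52 relative to the resting list, and 0.55 to 0.62 when 1 array was left out. The median of the resting list was -0.022 to 0.13 when 1 array was left out, and it was below 0 only without knockout replicate 2. Both knockout arrays lay above all controls for 5 of the 7 brighter members (against 6.12% of the brighter genes) and for 7 of 10 with median centring (5.94% of all genes). The same held for 6 of 10 relative to the resting list (2.16%), and for 8 to 10 when 1 control array was left out (9.31% to 10.4%). With 1 knockout array left out, the remaining one was above all controls for 9 without replicate 1 (19.2%) and 8 without replicate 2 (16.7%). Between 7 and 8 members were higher at an unadjusted p under 0.05 when 1 array was left out, against 3.05% to 4.21% of all genes. Of the members, Clec7a passed the limma threshold with median centring (adjusted p = 0.0417) and with an intensity trend (0.00433), Itgax with an intensity trend (0.00561) and Cd84 among the brighter probe sets (0.0389). Over all alternatives the adjusted p ran from 0.00433 to 0.357 for Clec7a, from 0.00561 to 0.367 for Itgax and from 0.0389 to 0.367 for Cd84. The cause was not tested.

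Counts over all probe sets moved widely. Knockout against both controls gave 7 calls, but 22 with median centring, 135 with a trend, 34 among brighter probe sets, 0 with sex as a covariate and 0 to 1 when 1 array was left out. Against NestinCre control the main count of 0 became 9, 39 and 11 in the first 3 of these, 1 with the compared groups alone, and 0 to 1 when 1 array was left out. Against Flox control the 2 calls became 9, 162 and 23 in the same 3, and 0 with log2 of the intensity plus 16, a repeated quantile normalization, the compared groups alone, sex as a covariate or any 1 array left out. NestinCre control against Flox control gave 0 calls, 1 with a trend and 0 to 2 when 1 array was left out. Same-numbered arrays did not deviate together: their deviations correlated at -0.31 between knockout and NestinCre control, -0.24 between knockout and Flox control and 0.19 between the controls. With the replicate block there were 0 calls in each of the 4 comparisons, and 7 members were higher at an unadjusted p under 0.05, against 3.71% of all genes. In all, 3 members lie below the median brightness, where array values resolve differences least.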
